A study of Sus scrofa with 12 samples.

Results

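A run of 11 transcripts with neighbouring identifiers held the highest level in the uterus of neonatal gilts, and its identifiers lay where the protein genes of the mitochondrial genome would fall. The run was chosen by level: the 19407 transcript IDs of the deposited table were sorted by number, every stretch of 40 ID numbers with at least 10 IDs was considered, and the stretch with the highest median of the authors' normalised signal, averaged over all 12 libraries, was kept. Of 10312 such stretches, the one starting at ENSSSCT00000019670 had the highest median, 27808. It ended at ENSSSCT00000019689. The level of these transcripts was therefore fixed by the choice and is given as a description. The rule did not use the contrasts between gilts, litters and days, but the members were chosen with earlier results of these data known.

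The uterus of 12 crossbred gilts was profiled by stranded poly(A) RNA sequencing, with 1 library per animal. Of these, 6 gilts had a low iCrit ratio on the day of birth, labelled as insufficient lactocrine exposure, and 6 had a high ratio, labelled as sufficient. The iCrit (immunocrit) reflects how much immunoglobulin a newborn piglet has taken up with colostrum, and lactocrine exposure is the delivery of maternal factors in first milk. Each low gilt was paired with a high littermate, in 6 litters numbered 1 to 6, and gilts were 14 days old in litters 1, 2, 3 and 6 and, by their sample labels, 15 days old in litters 4 and 5. No genotype or drug separated the groups, and all gilts came from 1 research herd. The labelled tissue was not checked against marker genes here, because the deposited table gives transcript IDs without gene symbols.

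Libraries held 20809072 to 48306794 counted reads, and the high library was the deeper in 6 of 6 litters, so that depth moved with the iCrit group. Depth also moved with litter and day: the littermates of litters 1, 4 and 5 together held 68456374 to 81549674 reads, and those of litters 2, 3 and 6 held 44666137 to 50284006. Its part in the results below was not tested. Litter 3 stood apart. The median absolute log2 difference between its littermates over all tested transcripts was 0.53, against 0.20 to 0.29 in the other litters, and the deviations of its littermates from their group means correlated across transcripts at 0.021, against 0.097 to 0.529 elsewhere. Most fits that rest on litter 3 are given with and without it. The spread among litters was computed with it only.

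Mitochondria keep a small circular genome that encodes core subunits of the respiratory chain and the ATP synthase, together with the transfer and ribosomal RNAs needed to translate them. Its strands are transcribed into long precursors that are cut largely at the transfer RNAs, and most of the resulting messenger RNAs are polyadenylated, so they enter poly(A) libraries. In the uterus, as in other tissues, the amount of these RNAs depends on how much mitochondrial DNA and transcription each cell has and on which cells are present. In bulk tissue, fewer cells of a type and less RNA per cell cannot be told apart.

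The name of the run was checked before it was used. The RefSeq table of the pig assembly Sscrofa11.1 lists 37 mitochondrial genes, of which 13 code for proteins, 22 for transfer RNAs and 2 for ribosomal RNAs. The 13 protein genes also have Ensembl gene IDs in the table of gene names, and the numbers of those gene IDs follow the RefSeq order with 1 number per gene. When the gene numbers were shifted by 1595, all 13 met a transcript ID of the deposited table, and 0 of the 24 numbers of transfer and ribosomal RNA genes did. Over 91600 possible start numbers, this was the only one where the pattern of present and absent IDs matched at all 37 places; the next best matched at 32. All 11 transcripts of the run fell on protein gene places, from COX1 to CYTB. The 2 remaining places, those of ND1 and ND2, were held by ENSSSCT00000019660 and ENSSSCT00000019664, which lie just before the run.

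The pattern therefore matched the mitochondrial gene block, and the run is called mitochondrial from here on. No table used here pairs the transcript IDs with genes, and a symbol below stands for the place an ID holds in this alignment, not for an ID match. ENSSSCT00000019670, ENSSSCT00000019673 and ENSSSCT00000019677 held the places of COX1, COX2 and COX3, the catalytic core of cytochrome c oxidase (complex IV). ENSSSCT00000019675 and ENSSSCT00000019676 held those of ATP8 and ATP6, membrane subunits of the ATP synthase. ENSSSCT00000019679, ENSSSCT00000019681, ENSSSCT00000019682, ENSSSCT00000019686 and ENSSSCT00000019687 held those of ND3, ND4L, ND4, ND5 and ND6, subunits of the proton-pumping NADH dehydrogenase (complex I). ENSSSCT00000019689 held that of CYTB, the cytochrome b of complex III. Neighbouring mitochondrial genes overlap at ATP8 and ATP6 and at ND4L and ND4, and nuclear copies of mitochondrial sequence exist, so the division of reads among these IDs depends on counting choices, which the sources used here do not state.

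**Figure D1:**
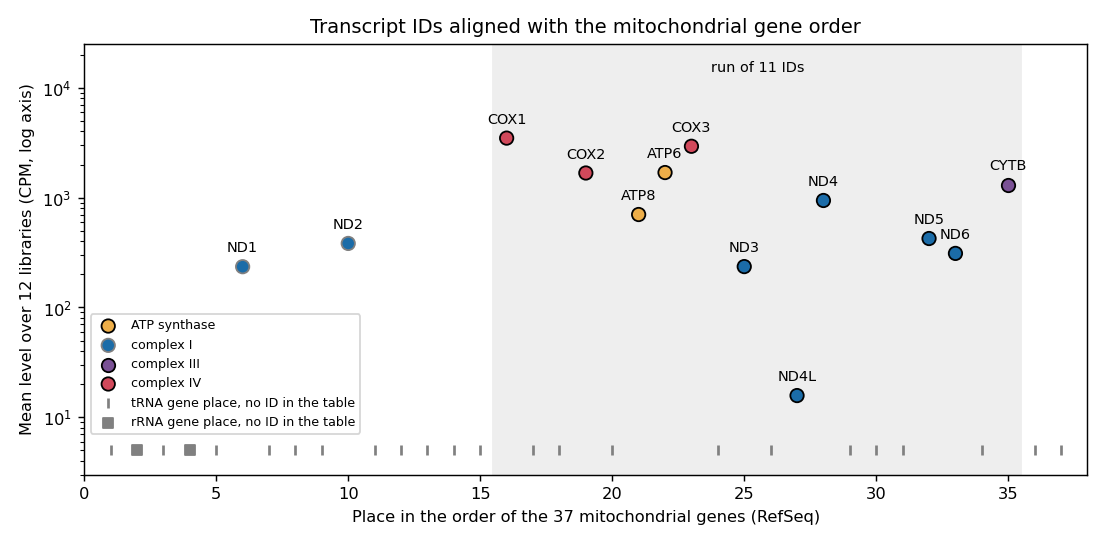
Mean level over the 12 libraries (CPM, log axis) against the place in the RefSeq order of the 37 mitochondrial genes. Points are transcript IDs coloured by the complex of the aligned gene, the grey band spans the run of 11, and grey marks are the 24 transfer and ribosomal RNA places, which have no ID in the table.

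Just inside the threshold, the window of the run had a median of 27808 on the deposited signal scale, and moving its start back to ENSSSCT00000019664 or forward to ENSSSCT00000019673 gave 24300. The highest window sharing no ID with the run or the 2 IDs before it, from ENSSSCT00000007822 to ENSSSCT00000007853, had 4353. The member at the ND4L place had a mean signal of 468 and belonged to the run by its number alone, the median of all IDs being 267. The IDs at the ND1 and ND2 places had 7043 and 11394. The next ID before them, ENSSSCT00000019652, had 276, and the one before that, ENSSSCT00000019648, had 3203. The next IDs after the run, ENSSSCT00000022248 and ENSSSCT00000022250, lie far off in number and had 103 and 1226.

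Together the 11 transcripts held 1.37% ± 0.481 of all counted reads (SD, n = 12). In low gilts the share was 1.53%, 1.48%, 1.83%, 1.15%, 1.11% and 1.97% in litters 1 to 6. In their high littermates it was 0.767%, 1.55%, 2.26%, 0.993%, 0.740% and 1.07%. The low gilt thus had the larger share in litters 1, 4, 5 and 6 and the smaller share in litters 2 and 3, and the groups overlapped. The share was 1.51% ± 0.349 (SD, n = 6) in low and 1.23% ± 0.581 (SD, n = 6) in high gilts, and without litter 3 the means were 1.45% and 1.02%. The largest ratio of low to high was 1.99 in litter 1 and the smallest 0.813 in litter 3. The high gilt of litter 3 had the largest share of all 12 libraries. No test was made of this sum, because the transcripts were chosen with results of these data known.

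**Figure D2:**
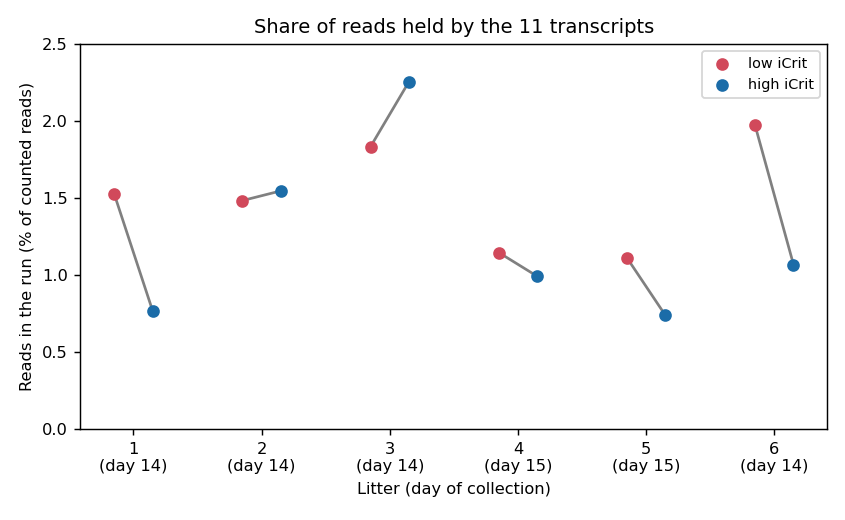
Share of counted reads held by the 11 transcripts (percent) in each library, with littermates joined by a line, low iCrit in red and high in blue. The lines fall from low to high in litters 1, 4, 5 and 6 and rise in litters 2 and 3; the highest share is 2.26% in the high gilt of litter 3.

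The places of COX1 and COX3 held the largest parts of the reads of the run. The COX1 place held 25.0% of the reads of the run in the median library, from 20.7% in the low gilt of litter 6 to 33.1% in the low gilt of litter 3. The COX3 place held 21.8%, from 15.8% in the low gilt of litter 3 to 24.9% in the low gilt of litter 1. The low gilt of litter 3 therefore had both the highest part for COX1 and the lowest for COX3, and it also had the highest part for COX2, 16.8%, and for ND6, 2.81%, and the lowest for ND4, 4.08%. At the other places ATP6 held 10.3% to 14.1%, CYTB 7.62% to 10.8%, ATP8 4.12% to 6.76%, ND5 2.38% to 3.91%, ND3 1.55% to 1.94% and ND4L 0.07% to 0.18%. These values are parts of reads and are not corrected for transcript length, so they do not rank the transcripts by number of molecules.

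The first comparison asked whether low gilts differed from their high littermates in the run. None of the 11 transcripts was called in the edgeR quasi-likelihood test with the litter as a block, but all 11 had a fitted level higher in low gilts, with log2 fold changes from 0.24 to 0.64 and a median of 0.38. Over all 14821 transcripts tested, 0, or 0%, passed an adjusted p under 0.05, 50.4% had a fitted log2 fold change above 0, and the median was 0.00. The adjusted p in edgeR was 1.00 for every member. At an unadjusted p under 0.05 there were 3 members, at the places of COX1, ND4L and ND6, where 1.52% of all transcripts reached this. DESeq2 called 0 members, and 0.0135% of all transcripts, and gave 6 members at an unadjusted p under 0.05, where 1.78% of all reached this. The limma-voom fit called 0 members, and 0% of all, and gave 4 at an unadjusted p under 0.05, where 1.69% did. The 11 transcripts share libraries and precursors and are not independent observations.

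Among the complex IV places, COX1 was the member with the smallest p. Its level was 3914, 4195, 6065, 2688, 2640 and 4078 CPM (read counts scaled to a common library total, without length correction) in the low gilts of litters 1 to 6. In the high gilts it was 2158, 4230, 4801, 2238, 2125 and 2608 CPM. Low exceeded high in each litter but litter 2, where the levels differed by less than 1 part in 100 before scaling and where TMM scaling, a correction for library composition, turned the difference to 0.09 in favour of low. The ranges of the groups overlapped. The fitted difference on the log2 scale was 0.41 (SE 0.15, 95% interval 0.10 to 0.73), at an unadjusted p of 0.0146 in edgeR's quasi-likelihood test, where its adjusted p was 1.00. Without litter 3 the fitted difference was 0.44.

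COX3 had the widest differences between littermates of these 3 places. Its level ran from 2443 to 4827 CPM with a median of 3113 in low gilts and from 1299 to 5100 CPM with a median of 2029 in high gilts, and the high gilt of litter 3 had the highest value of all. On the log2 scale low exceeded high by 1.56 in litter 1 and by 1.27 in litter 6, and in litter 3 the difference was -0.88. The fitted log2 difference was 0.52 (SE 0.26, 95% interval -0.05 to 1.08), and 0.79 without litter 3 and 0.31 without litter 1. COX2 ran from 1228 to 3079 CPM, median 1607, in low and from 1037 to 3270 CPM, median 1238, in high gilts, and the highest value of either group was that of litter 3. Its log2 fold change was 0.24 with a 95% interval of -0.08 to 0.55, and 0.32 without litter 3.

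The ATP synthase places were also lower in the low than in the high gilt of litter 3. ATP6 ran from 1517 to 2731 CPM with a median of 1810 in low gilts and from 869 to 2697 CPM with a median of 1328 in high gilts, with overlapping groups. Its log2 difference was largest in litter 6, at 1.17, and was -0.59 in litter 3; the fitted value was 0.42 with a standard error of 0.21 and a 95% interval of -0.03 to 0.88, and 0.62 without litter 3 and 0.27 without litter 6. ATP8, which overlaps ATP6 in the genome, had a log2 fold change of 0.25 with a 95% interval of -0.12 to 0.62, and values of 0.41 without litter 3, 0.16 without litter 5 and 0.14 without litter 6. Its median level was 680 CPM in the low group and 557 CPM in the high group.

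Of the complex I places, ND4L, the least abundant member with 250 to 745 reads per library, had the largest fitted difference. Its level ran from 11.98 to 35.8 CPM, median 16.4, in low gilts and from 6.87 to 23.9 CPM, median 10.9, in high gilts. The low gilt of litter 3 was the lowest of the low group and the high gilt of litter 3 the highest of the high group, so that this litter went against the others. The fitted log2 difference was 0.64 (SE 0.28, 95% interval 0.04 to 1.24), at an unadjusted p of 0.0377, and 0.96 without litter 3.

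ND6 is the one protein gene encoded on the opposite strand of mitochondrial DNA. It ran from 235 to 515 CPM, median 310, in low and from 160 to 569 CPM, median 227, in high gilts, and litter 3 was highest in both groups. The fitted difference was 0.35 on the log2 scale (SE 0.15, 95% interval 0.02 to 0.68), at an unadjusted p of 0.0383 in edgeR. Without litter 3 that difference was 0.46. ND3 ran from 184 to 369 CPM, median 236, in low and from 120 to 390 CPM, median 187, in high gilts. Its log2 fold change was 0.38, with a 95% interval of -0.01 to 0.77, and 0.53 without litter 3. For ND4 and ND5 the fitted values were 0.34 and 0.33, with intervals that included 0. Without litter 3 they were 0.57 and 0.55, and without litter 6 they were 0.22 and 0.20; the value of ND4 was also 0.22 without litter 1.

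At the complex III place, CYTB ran from 1081 to 2104 CPM, median 1330, in low gilts and from 584 to 2384 CPM, median 1100, in high gilts. The low gilt of litter 6 was the highest of its group and the high gilt of litter 3 the highest overall. Its fitted log2 difference was 0.38 (SE 0.22, 95% interval -0.09 to 0.85), and 0.61 without litter 3 and 0.22 without litter 1. The groups overlapped for 11 of 11 members. The share over all transcripts was not counted, so this does not set the members apart.

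**Figure D3:**
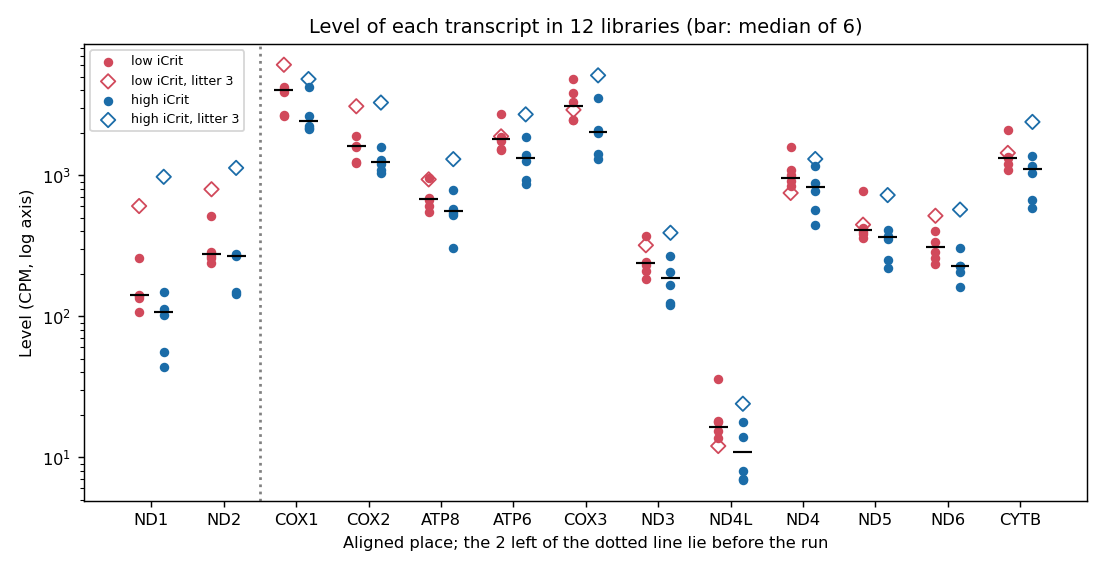
Level of each transcript (CPM, log axis) in the 6 low (red) and 6 high (blue) libraries, with litter 3 as open diamonds and the median of each group as a bar. The groups overlap at all 13 places, and the high gilt of litter 3 is the highest of the high group at each of them.

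In 4 of the 6 litters all members shared a direction. Whether the difference between low and high varied between litters was not tested. In litters 1, 4, 5 and 6, 11 of 11 members were higher in the low gilt, with median log2 differences of 0.94, 0.28, 0.63 and 0.89; over all tested transcripts the shares higher in the low gilt were 48.6%, 49.9%, 50.4% and 48.6%. In litter 2 the members were nearly level, with a median of 0.02 and a range from -0.12 to 0.28. There 8 of 11 were higher in the low gilt with TMM scaling, against 52.5% of all transcripts. On the deposited signal 7 were higher and in CPM 3, and the shares over all transcripts were not counted for these scalings. In CPM the median difference was -0.08 both for the members and over all transcripts. On the deposited signal it was 0.01 for both. In litter 3 the order was turned for 10 of 11 members, the median being -0.59 and 48.7% of all transcripts being higher in the low gilt. COX1 was the exception in litter 3, at 0.27 in favour of low, and with TMM scaling it was the only member higher in the low gilt of 6 of 6 litters, which 0.864% of all transcripts were. In CPM it was higher in 5. The change of scaling mattered most in litters 2 and 5, where the median difference over all transcripts was -0.08 and 0.12 in CPM and 0.02 and 0.00 with TMM scaling.

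**Figure D4:**
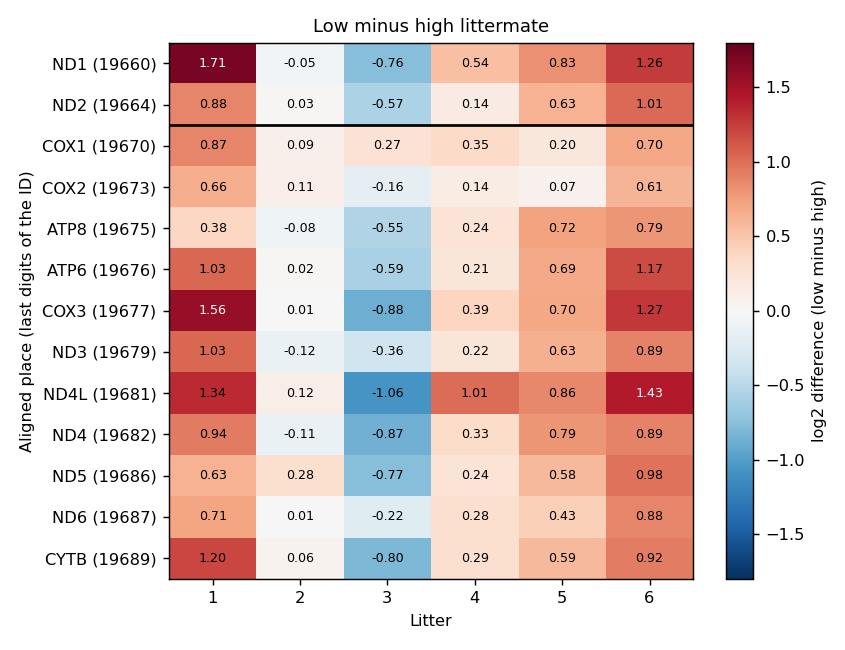
Log2 difference between littermates (low minus high, TMM-scaled) for each transcript in each litter, red where the low gilt is higher; the 2 rows above the line are the IDs before the run. Columns 1, 4, 5 and 6 are red for all 11 members, litter 2 is near 0, and litter 3 is blue for 10 of 11.

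Without litter 3 the members moved further from 0 while the adjusted test still called none. The median log2 fold change was 0.55, the members ranged from 0.32 at COX2 to 0.96 at ND4L, and 11 of 11 had an unadjusted p under 0.05, where 7.55% of 14920 transcripts did. The adjusted p in edgeR ran from 0.453 to 0.635 for the members, and 0% of all transcripts were called. The result also leaned on single other litters: the number of members at an unadjusted p under 0.05 was 0 without litter 1, 4 without litter 2, 1 without litter 4, 1 without litter 5 and 0 without litter 6. Over all transcripts the shares in these fits were 1.35%, 1.2%, 1.3%, 1.7% and 1.43%. Without the litter block there were 0 members, where 0.621% of all transcripts reached this, and the median log2 fold change was 0.28. In each of 12 alternative fits, 11 of 11 members had a log2 fold change above 0, where 50.4% of all transcripts did in the main fit. The alternatives reuse the same libraries and are not independent of each other.

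The second comparison asked whether litters differed in these transcripts beyond the spread within pairs. COX2 was the member called, with an adjusted p of 0.0427 for the litter terms in edgeR's quasi-likelihood model, where 85 of 14821 transcripts, or 0.574%, were called. At an unadjusted p under 0.05 there were 7 of 11 members, where 17.8% of all transcripts reached this. The adjusted p was 0.0741 for ND6 and 0.0911 for COX1, and ran up to 0.456 at ND4. The call of COX2 was lost without litter 2, 3, 4 or 5, at adjusted p-values of 0.0782, 0.292, 0.131 and 0.121, and in limma-voom, at 0.0528. Without litter 3, ND5 and ND4L were called instead, at 0.0369 and 0.0371, where 7.9% of 14920 transcripts were called. Without litter 1 ND6 was called beside COX2, at 0.0483, where 0.574% were called.

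Litter 3 had the highest litter mean for most members, and the 2 litters of day 15 had low ones. In litter 3, 11 of 11 members were above their own mean over 6 litters, by a median of 0.63 on the log2 scale, against 49.2% of all transcripts. The excess was 1.05 at COX2, 0.93 at ND6 and 0.74 at COX1, and it was smallest at ND4, 0.17, and ND4L, 0.28, where litter 6 was highest. In litters 4 and 5, which had the most reads, 0 of 11 members were above their mean, with medians of -0.32 and -0.51, against 51.3% and 50.4% of all transcripts. The same held for litter 1, a litter of day 14 with the next most reads, with 0 of 11 and a median of -0.23. In litters 2 and 6, 10 and 9 of 11 members were above their mean, with medians of 0.17 and 0.21. Over all transcripts the median was -0.001, -0.011 and 0.002 in litters 1, 2 and 6, and the share above the mean was not counted there. The SD of litter means was 0.46 in the median member, 0.23 in the 200 most abundant other transcripts and 0.27 over all tested transcripts. The median absolute difference between littermates was 0.60 for the members, 0.23 for those abundant transcripts and 0.27 over all. Both medians were thus larger for the members. The SD of litter means also holds the spread between littermates, so the 2 measures are not separate. By transcript, that SD ran from 0.34 to 0.55 for the members and from 0.04 to 0.71 for the abundant transcripts. This is a description of these libraries, with litter 3 included, and was not tested.

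**Figure D5:**
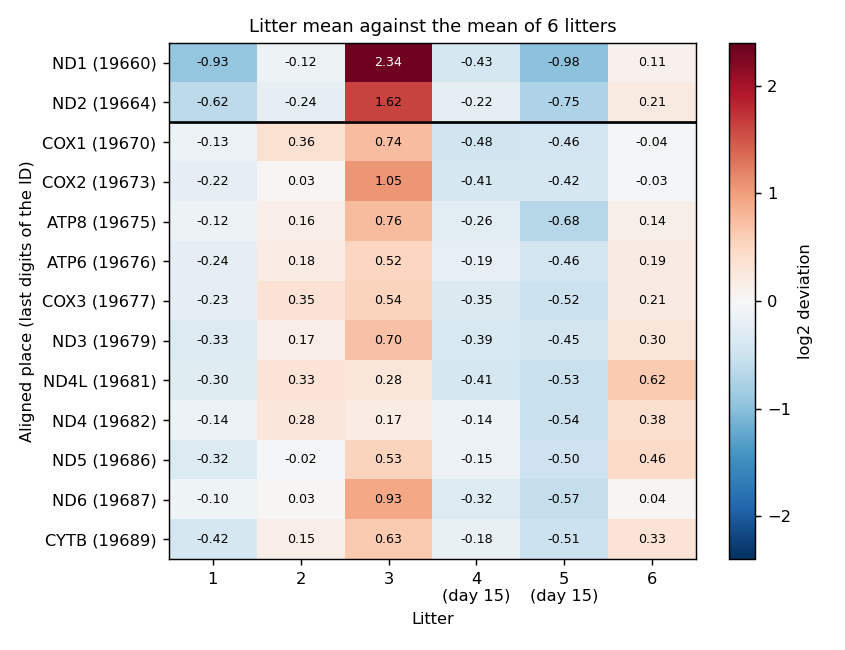
Litter mean of each transcript as its log2 deviation from the mean of the 6 litters (TMM-scaled), red where the litter is above; the 2 rows above the line are the IDs before the run. Litter 3 is above the mean at all 13 places and most at ND1, 2.34, and ND2, 1.62, while litters 1, 4 and 5 are below it at all 13.

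The 2 mitochondrial places before the run were high in litter 3. At ND1 the littermates of litter 3 had 603 CPM (low) and 973 CPM (high), with 43.7 to 257 CPM in the 10 other libraries. At ND2 the corresponding values were 794 and 1125 CPM, against 143 to 515 CPM elsewhere. Both gilts of litter 3 thus lay above every other library at these places. For every 100 reads of the run, ND1 had 3.29 and 4.31 reads in litter 3 and 0.57 to 1.30 elsewhere, and ND2 had 4.33 and 4.99 against 1.75 to 2.78. The litter terms had adjusted p-values of 0.0115 for ND1 and 0.0187 for ND2 in edgeR, and both calls were lost without litter 3, at 0.161 and 0.0661, and without litter 5, at 0.0568 and 0.0688. Between low and high gilts their log2 fold changes were 0.59 and 0.35, with an adjusted p of 1.00 for both in edgeR. Without the litter block these values were -0.08 (SE 0.80) and 0.07 (SE 0.49). The sign at ND1 turned, but both values were smaller in size than their SE, so no direction can be read from them.

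The third comparison set the 2 litters of day 15 against the 4 of day 14, with littermates summed. All 11 members had a lower fitted level at day 15, with log2 fold changes from -0.84 at ND4L to -0.57 at ATP6 and a median of -0.74, where the median of all 15917 transcripts was -0.02. The run held 0.927% and 1.07% of reads in the day 15 litters and 1.15% to 2.05% in those of day 14, as means of littermates. By library the days overlapped, since the high gilts of litters 1 and 6 (day 14) had 0.767% and 1.07% and the low gilt of litter 4 (day 15) had 1.15%. The day 15 litters also had the most reads. None of the members was called in edgeR, with adjusted p-values from 0.281 to 0.398, and 1 transcript in all, or 0.00628%, was called. At an unadjusted p under 0.05 there were 11 of 11 members, where 12.4% of all transcripts reached this. Without litter 3 there were 9, where 10.4% did, and the median was -0.53. Without litter 5 there were 3, where 8.83% did. With 1 library per litter there were 7 in the low gilts, where 11.4% did, and 2 in the high gilts, where 3.87% did. Without litter 6 there were 9, where 20.6% did; that fit called 2.28% of all transcripts and 0 members, whose smallest adjusted p in edgeR was 0.08001. At the ND1 and ND2 places before the run the day fit gave -1.7 (SE 1.1) and -1.03 (SE 0.74). Their unadjusted p-values in edgeR were 0.1857 and 0.2175, so neither reached 0.05. Without litter 3 the log2 fold changes were -0.53 and -0.33. Littermates shared the day, so that day and litter cannot be told apart with 2 litters of day 15.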

How the data were processed

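The deposited table holds 3 values per library. Per the file headers and values, the first is a signal that the authors made by dividing counts by 1 factor per library; 100% of its values came back as whole reads within 0.001. The second, headed RPKM by the authors, was taken to be CPM, and the CPM given here were computed from the counts. The third holds the deposited estimated counts, of which 10.8% were not whole, and these were rounded. The blocks are sorted differently. IDs were read with the signal, since counts on the own rows of the 13 mitochondrial IDs had a median of only 63.8, and each ID was joined to the row with identical counts; 18604 of 19407 IDs, all members included, matched exactly 1 row. Per the submitters' processing notes, the tools were TopHat2 2.1.1 and Cufflinks, Trimmomatic 0.36, bedtools, FastQC 11.5, edgeR and DESeq2. The sources used here give neither their roles nor the genome build or annotation.

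All transcripts kept by filterByExpr were fitted with edgeR 4.0.16 (R 4.3.3; TMM, robust quasi-likelihood) and adjusted over all of them by Benjamini-Hochberg at 5%; log values used a prior count of 2. Litter was a block, since the design states that pairs were littermates; littermates' deviations correlated at 0.271 on average. Standard errors came from the quasi-likelihood F. Alternatives used DESeq2 1.42.0, limma-voom 3.58.1, other scalings, no low-count filter, no block and each litter left out. The code was checked on simulated counts. Members and lists were chosen with earlier results of these data known. The rule for full values named the 4 members with the highest mean and 4 more with the smallest unadjusted p. Of these, the text gives the level in each library for COX1 only, and the range and median of each group for the others. Lists of nuclear respiratory genes and uterine cell markers were not used, because no table here pairs the transcript IDs with symbols.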

Additional observations from a re-analysis of the deposited data

Results flagged for a closer look

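Dixon's criterion at 95% was applied to 42 sets of 6 values: each transcript in low gilts, in high gilts and as a difference between littermates, and the share of the run. By it, 11 values lay far from the other 5 of their set. For independent sets chance flags about 1 in 20, or 2.1 sets. These sets share the same libraries, and the differences and the share are built from the same values. They are not independent, so 11 cannot be weighed against 2.1.

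Litter 3 accounted for 7 of the flagged values. The low gilt of litter 3 had 603 CPM at the ND1 place, the next low library having 257, and 3079 CPM at COX2, the next having 1884. The high gilt of litter 3 had 973 CPM at ND1 against 149 in the next high library, 1125 CPM at ND2 against 276, 3270 CPM at COX2 against 1579, 722 CPM at ND5 against 405, and 569 CPM at ND6 against 304.

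The low gilt of litter 6 accounted for the other 4. It had 2731 CPM at ATP6 against 1883 in the next low library, 35.8 CPM at ND4L against 17.9, 771 CPM at ND5 against 445, and 2104 CPM at CYTB against 1437.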

How the results depend on the processing

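For low against high gilts, each of 12 alternatives called 0 members, and 0% to 0.0135% of all transcripts. At an unadjusted p under 0.05, no low-count filter gave 5 members (1.48% of all transcripts), DESeq2 6 (1.78%) and the fit without the replicate block 0 (0.621%), and leaving out each litter gave 0 to 11 (1.2% to 7.55%). Without the block the log2 fold change at the ND1 place (ENSSSCT00000019660) was -0.0813 (SE 0.797). The cause was not tested. With and without the block, 0 members and 0% of all transcripts were called. Between litters, limma-voom called 0 members (0.54% of all transcripts) and no low-count filter 4 (2.59%), and leaving out each litter gave 0 to 2 (0.0479% to 7.9%). For day, 0 members were called under each of 11 alternatives, which called 0% to 2.28% of all transcripts. At an unadjusted p under 0.05, leaving out each litter gave 3 to 11 members (6.22% to 20.6% of all transcripts). Low libraries alone gave 7 (11.4%) and high libraries alone 2 (3.87%). The cause of these shifts was not tested. Without litter 6 the day fit called 365 transcripts in all, against 1. Windows of 20 or 60 ID numbers chose the same 11 members. Counting the IDs at ND1 and ND2 with the run, an alternative added after seeing the data, gave shares of 1.58% in low and 1.29% in high gilts. The fewest reads of a member in a library were 250, at ND4L.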
